A study of Homo sapiens with 6 samples.

Results

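The genes described here are 10 transcriptional outputs of the ERK branch of MAPK signalling. They are the dual-specificity phosphatases DUSP1, DUSP4, DUSP5 and DUSP6, the Sprouty genes SPRY2 and SPRY4, the immediate-early genes PHLDA1, IER3 and EGR1, and the ETS factor gene ETV4. They were picked by name, with earlier results of these data known, from the 30735 genes of the deposited tables. Of the 10, 9 passed the filter on low values that 12527 genes passed. RNA was sequenced from PANC-1, an established human pancreatic ductal carcinoma cell line, in 3 samples that received siRNA against CD73 (CD73 siRNA) and 3 that received a negative control. Both groups were grown in DMEM with fetal bovine serum and transfected with Lipofectamine 3000 in serum-free medium. The study lists a single siRNA product against CD73, so an effect of that product on other transcripts cannot be told apart from the loss of CD73. It describes the samples as separate knockdown experiments. In these bulk samples, a change in RNA per cell cannot be told apart from a change in the share of cells that express a gene.

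When a growth factor receptor fires, RAS activates the kinases RAF, MEK and ERK in turn, and ERK switches on a small set of genes within minutes to hours. Some of these genes carry the signal onward as transcription factors, such as EGR1 and ETV4. Others feed back on the pathway: DUSP proteins remove the phosphates that activate MAP kinases, and Sprouty proteins block the step between receptor and RAF. The levels of these feedback transcripts are widely read as a sign of ERK output. The comparison of CD73 siRNA with control addresses whether these transcripts differ when CD73 is reduced, and it measures mRNA, not the phosphorylation of ERK.

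Promoter sequences of 6 of the 10 genes were held in the RefSeq table (GRCh38.p14), those of DUSP1, DUSP6, SPRY2, SPRY4, PHLDA1 and EGR1. The 4 below are shown because EGR1 and DUSP1 stood highest, and DUSP6 and SPRY4 lowest, in the samples numbered 2 of both groups. Each runs 5′ to 3′ on the strand of the gene, from 250 bases before the transcription start to 50 after it, and capitals mark matches to the motifs described next. EGR1 is chr5:138465229-138465528 on the forward strand, and the other 3 lie on the reverse strand, DUSP1 at chr5:172771146-172771445, DUSP6 at chr12:89352452-89352751 and SPRY4 at chr5:142324198-142324497.
EGR1: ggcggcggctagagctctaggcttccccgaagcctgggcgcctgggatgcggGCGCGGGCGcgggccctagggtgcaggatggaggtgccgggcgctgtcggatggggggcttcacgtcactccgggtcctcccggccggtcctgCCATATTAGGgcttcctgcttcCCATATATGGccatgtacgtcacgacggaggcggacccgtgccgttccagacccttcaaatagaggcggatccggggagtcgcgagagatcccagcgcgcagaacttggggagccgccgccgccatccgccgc
DUSP1: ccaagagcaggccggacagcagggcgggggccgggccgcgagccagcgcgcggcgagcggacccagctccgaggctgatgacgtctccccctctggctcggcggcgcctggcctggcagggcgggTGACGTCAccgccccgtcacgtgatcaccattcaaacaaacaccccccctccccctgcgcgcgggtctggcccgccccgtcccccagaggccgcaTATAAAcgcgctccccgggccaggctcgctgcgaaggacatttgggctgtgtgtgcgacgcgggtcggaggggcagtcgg
DUSP6: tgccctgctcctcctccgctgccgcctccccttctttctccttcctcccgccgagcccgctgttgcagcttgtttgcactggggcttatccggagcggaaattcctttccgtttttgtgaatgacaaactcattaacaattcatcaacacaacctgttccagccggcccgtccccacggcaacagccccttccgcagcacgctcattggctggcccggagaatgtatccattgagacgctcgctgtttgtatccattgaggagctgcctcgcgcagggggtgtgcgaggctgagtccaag
SPRY4: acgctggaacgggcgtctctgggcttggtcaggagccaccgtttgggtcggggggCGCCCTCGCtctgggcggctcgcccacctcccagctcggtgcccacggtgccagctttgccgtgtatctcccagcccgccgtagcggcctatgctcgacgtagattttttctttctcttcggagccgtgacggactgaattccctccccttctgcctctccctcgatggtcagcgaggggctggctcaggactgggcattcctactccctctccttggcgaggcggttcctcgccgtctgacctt

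Both strands were searched for 7 motifs. These were the TATA box (TATAAA), the CArG box that serum response factor binds, the cyclic AMP response element or CRE (TGACGTCA), the AP-1 site (TGANTCA), an ETS site (CCGGAA), an EGR site (GCGNGGGCG) and the NF-κB site. The EGR1 promoter held 2 CArG boxes, CCATATTAGG from -105 to -96 and CCATATATGG from -83 to -74, counted from the start with -1 as the base before it. A CArG box was present in 1.29% of the 35116 promoters of this length. EGR1 also held an EGR site from -198 to -190, a motif found in 9.43% of promoters. The DUSP1 promoter held a CRE from -125 to -118, present in 1.85% of promoters, and a TATA box from -30 to -25, present in 11.5%. SPRY4 had an EGR site on the opposite strand from -195 to -187. PHLDA1 had an ETS site from -89 to -84 on the opposite strand, and 1 of the 3 SPRY2 promoters had an ETS site and 2 EGR sites. ETS sites were present in 17.2% of all promoters, AP-1 sites in 7.71% and NF-κB sites in 11.3%. No match to the 7 motifs was found in the DUSP6 window, and none of the matches overlapped each other.

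The libraries held between 15009113 and 16836207 reads or read pairs by the totals that the values imply. NT5E, the gene of CD73, was at 3.36, 6.85 and 8.22 RPKM in CD73 siRNA samples 1, 2 and 3 and at 13.96, 13.87 and 17.14 RPKM in the controls of the same numbers. Samples that share a number deviated together from their group means, with correlations across genes of 0.20, 0.48 and 0.55 for numbers 1, 2 and 3. The results below are therefore also given from a fit blocked on the replicate number. A pairing of the numbers is not stated in the sources used here and was read from these same data. The carcinoma markers KRT8 (30.0 to 158 RPKM), KRT18 (36.3 to 87.0 RPKM) and VIM (183 to 263 RPKM) were abundant, KRT19 was at 3.60 to 5.39 RPKM, and KRT7, a defining duct keratin, did not exceed 0.107 RPKM. KRT8 and KRT18 were themselves lower after knockdown, by log2 differences of -1.27 and -0.68, past an unadjusted p below 0.01 with no overlap between groups, and their part in the results was not tested. Of 13 markers of blood, endothelial, acinar, islet and fibroblast cells, 9 were listed and 8 of these stayed at or below 0.231 RPKM. The remaining marker, the collagen gene COL3A1, was at 8.25, 8.44 and 14.7 RPKM in siRNA samples and at 6.12, 8.23 and 12.3 RPKM in controls. The summed level of the 9 markers ranged from 8.33 to 14.8 RPKM in siRNA samples and from 6.46 to 12.5 RPKM in controls, and its part in the results was not tested.

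All 9 tested genes had a lower mean on the log2(RPKM + 1) scale in CD73 siRNA samples than in controls. In limma's unblocked fit none of the 9 was past an unadjusted p below 0.01. The study counted changed genes at p below 0.01 and does not say whether that p was adjusted. The median log2 difference of the 9 was -0.42, against 0.01 over all tested genes, of which 48.0% had a lower mean. Without CD73 siRNA sample 1 the median of the 9 was -0.26. With the replicate block, 5 of the 9 were lower past that threshold, DUSP6, SPRY4, PHLDA1, EGR1 and DUSP5. The background was 1.31% of all tested genes called lower without the block and 3.3% with it. At an unadjusted p below 0.05, 2 of the 9 were lower without the block and 7 with it, against 4.9% and 10.2% of all tested genes. No member had an adjusted p below 0.05 in either limma fit, in which 0.00798% of all genes without the block and 0 genes with it were past that limit. Adjusted p-values of the 9 lay between 0.327 and 0.861 without the block and between 0.114 and 0.67 with it. NT5E, the siRNA target, was past an unadjusted p below 0.01 in both fits. Its adjusted p also missed the limit of 0.05, at 0.303 without the block and 0.113 with it. In 3 of the 9, every siRNA sample lay below every control, which held for 8.07% of all tested genes. For single genes an exact two-sided permutation test of 3 samples against 3 cannot give less than 0.1.

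**Figure D1:**
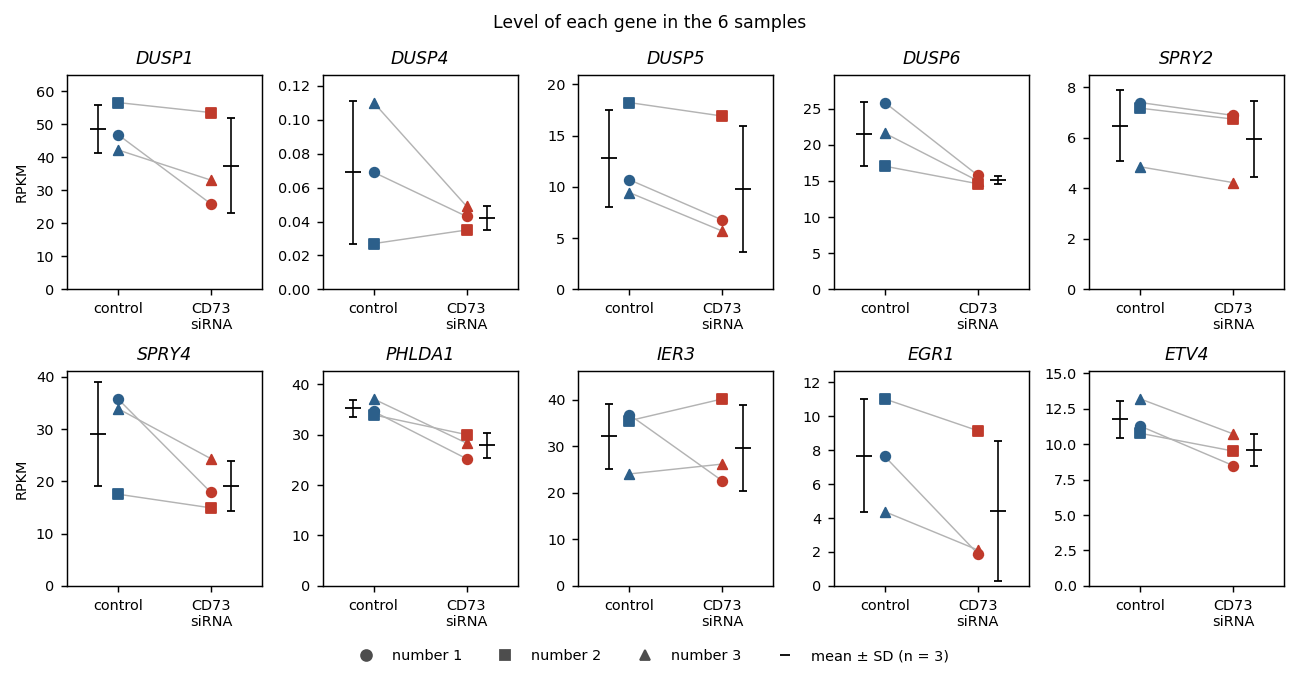
Level in RPKM of each of the 10 genes in the control and CD73 siRNA samples, with grey lines joining samples of the same number and black bars for the mean ± SD of 3 samples. The groups are apart for DUSP6, PHLDA1 and ETV4, while DUSP5 and EGR1 spread more within a group than between groups and DUSP4 stays at or below 0.110 RPKM.

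The phosphatases differed widely in level. DUSP1 encodes an immediate-early nuclear phosphatase that acts on p38 and JNK as well as ERK. DUSP1 (ENSG00000120129, GRCh38 chromosome 5 from 172768090 to 172771195) was at 25.9, 53.5 and 33.1 RPKM in siRNA samples 1, 2 and 3 and at 46.8, 56.5 and 42.2 RPKM in the controls. The groups overlapped, because siRNA sample 2 lay above controls 1 and 3. The means were 37.5 ± 14.3 and 48.5 ± 7.31 RPKM (SD, n = 3 each), a log2 difference of -0.42 (standard error 0.243, limma adjusted p = 0.513). With the block the standard error was 0.141 and limma's adjusted p was 0.161. The difference moved from -0.19 without siRNA sample 1 to -0.70 without siRNA sample 2.

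DUSP5, a nuclear phosphatase selective for ERK, followed the same course at a lower level. DUSP5 (ENSG00000138166, chromosome 10 from 110497838 to 110511544) was at 6.78, 16.9 and 5.70 RPKM in siRNA samples and at 10.7, 18.2 and 9.45 RPKM in controls. Sample 2 was the highest of each group, and each siRNA sample lay below the control of its own number. The means were 9.80 ± 6.18 and 12.8 ± 4.74 RPKM (SD, n = 3 each), a log2 difference of -0.44 (standard error 0.377, limma adjusted p = 0.662). With the block the standard error was 0.122 and adjusted p = 0.13, and DUSP5 was past the unadjusted threshold. Without siRNA sample 2 the log2 difference was -0.88, and without siRNA sample 3 it was -0.17.

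DUSP6, the cytoplasmic phosphatase selective for ERK and a classical feedback target of the pathway, was even across the knockdown samples. DUSP6 (ENSG00000139318, chromosome 12 from 89347232 to 89353271) was at 15.8, 14.6 and 15.03 RPKM in siRNA samples and at 25.8, 17.0 and 21.6 RPKM in controls. The groups did not overlap, and control 2 was the nearest to the siRNA samples (exact permutation test, p = 0.1). The mean in knockdown cells was 70.5% of the control mean, 15.1 ± 0.594 against 21.5 ± 4.40 RPKM (SD, n = 3 each). The log2 difference was -0.46 (standard error 0.148, limma adjusted p = 0.342). With the block the standard error was 0.107 and adjusted p = 0.114, and DUSP6 was past the unadjusted threshold. Between 1066 and 1920 reads stood behind each value. An antisense gene that shares 1875 exon bases with DUSP6, AC024909.2, did not exceed 0.029 RPKM.

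DUSP4, another nuclear phosphatase and a common ERK output, was close to absent. DUSP4 (ENSG00000120875) was at 0.043, 0.035 and 0.049 RPKM in siRNA samples and at 0.069, 0.027 and 0.110 RPKM in controls. These values rest on 3 to 12 reads per sample, and the groups overlapped. DUSP4 did not pass the filter on low values, and a difference of its mRNA was not detectable at this depth (exact permutation test on log2(RPKM + 1), p = 0.4).

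Sprouty genes encode membrane-associated inhibitors that act between receptor and RAF. SPRY4 (ENSG00000187678, chromosome 5 from 142310427 to 142326455) was at 17.9, 14.9 and 24.3 RPKM in siRNA samples and at 35.8, 17.5 and 33.9 RPKM in controls. Control 2 stood apart from controls 1 and 3 and lay below both siRNA samples 1 and 3, so the groups overlapped. The means were 19.0 ± 4.81 and 29.1 ± 10.0 RPKM (SD, n = 3 each), 65.5% of the control. The log2 difference was -0.55 (standard error 0.277, limma adjusted p = 0.468). SPRY4 was past the unadjusted threshold in the blocked fit (standard error 0.142, adjusted p = 0.12). Without control 2 the log2 difference was -0.865, the value farthest from 0 among the samples left out in turn.

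SPRY2 varied more between replicate numbers than between treatments. SPRY2 (ENSG00000136158, chromosome 13 from 80335976 to 80340951) was at 6.88, 6.73 and 4.22 RPKM in siRNA samples and at 7.39, 7.17 and 4.85 RPKM in controls. Sample 3 was the lowest of each group and the groups overlapped. The log2 difference was -0.11 (standard error 0.204, limma adjusted p = 0.861; 0.082 and 0.444 with the block). It was 0.08 without siRNA sample 3.

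PHLDA1, a pleckstrin-homology domain protein induced by ERK, was the most even of the immediate-early genes. PHLDA1 (ENSG00000139289, chromosome 12 from 76025447 to 76033932) was at 25.2, 30.0 and 28.3 RPKM in siRNA samples and at 34.6, 33.9 and 37.1 RPKM in controls. The 3 siRNA values were all below the 3 control values (exact permutation test, p = 0.1). The means were 27.9 ± 2.42 and 35.2 ± 1.66 RPKM (SD, n = 3 each), or 79.1% of the control. The log2 difference was -0.33 (standard error 0.102, limma adjusted p = 0.327). The blocked fit gave a standard error of 0.085 and adjusted p = 0.12, with PHLDA1 past the unadjusted threshold. PHLDA1 had the most reads of the 10 genes, 3273 to 4491 per sample, and the longest merged exon length, 8069 bases. The antisense gene AC011611.3, which shares 553 exon bases with it, did not exceed 0.438 RPKM, and AC011611.4, which shares 779, was not among the genes listed.

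EGR1, a zinc-finger transcription factor induced within minutes of ERK activation, showed the widest spread. EGR1 (ENSG00000120738, chromosome 5 from 138465490 to 138469315) was at 1.90, 9.15 and 2.12 RPKM in siRNA samples and at 7.63, 11.0 and 4.37 RPKM in controls. Sample 2 was the highest of each group, and siRNA sample 2 lay above controls 1 and 3. The means were 4.39 ± 4.12 and 7.67 ± 3.32 RPKM (SD, n = 3 each), or 57.2% of the control. Its log2 difference of -0.87 was the farthest from 0 of the 9 but had a standard error of 0.487 (limma adjusted p = 0.501). In the blocked fit, where EGR1 was past the unadjusted threshold, the standard error was 0.228 and adjusted p = 0.122. Without siRNA sample 2 the log2 difference was -1.45, and without siRNA sample 1 it was -0.55. Between 96 and 537 reads stood behind each value, and the 96 in siRNA sample 1 were the fewest in any sample for the 9 genes.

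IER3, an immediate-early gene of stress and survival signalling that is also induced through NF-κB, did not hold one direction. IER3 (ENSG00000137331, chromosome 6 from 30743199 to 30744554) was at 22.6, 40.2 and 26.2 RPKM in siRNA samples and at 36.8, 35.5 and 24.1 RPKM in controls. It was lower after knockdown within number 1 and higher within numbers 2 and 3. The log2 difference was -0.13 (standard error 0.233, limma adjusted p = 0.857; 0.169 and 0.67 with the block), and it was 0.04 without siRNA sample 1. The antisense gene IER3-AS1, which shares 359 exon bases, did not exceed 0.354 RPKM.

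ETV4 encodes a PEA3-type ETS transcription factor that ERK both induces and phosphorylates. ETV4 (ENSG00000175832, chromosome 17 from 43527844 to 43579620) was at 8.49, 9.51 and 10.7 RPKM in siRNA samples and at 11.3, 10.8 and 13.2 RPKM in controls. The groups did not overlap, by a narrow margin between siRNA sample 3 and control 2 (exact permutation test, p = 0.1). The means were 9.57 ± 1.12 and 11.7 ± 1.28 RPKM (SD, n = 3 each), a log2 difference of -0.27 (standard error 0.124, limma adjusted p = 0.43; 0.084 and 0.148 with the block). ETV4 shares 68 exon bases with DHX8 on the opposite strand, which was at 5.77 to 8.20 RPKM.

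**Figure D2:**
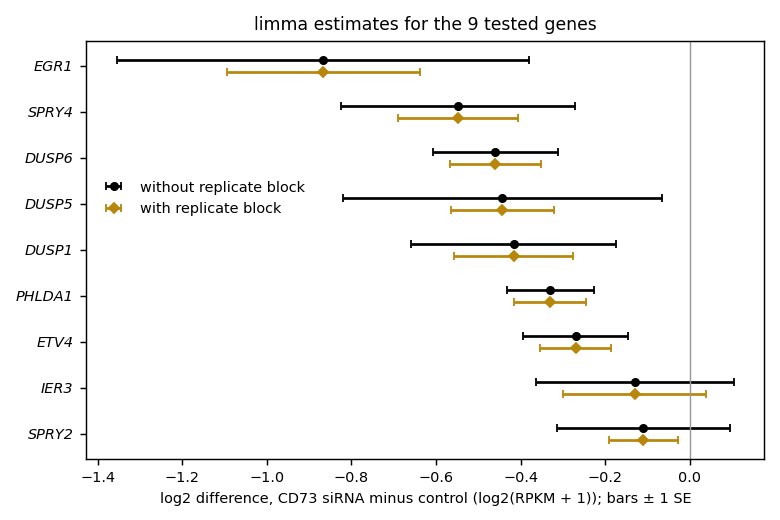
Log2 difference of CD73 siRNA and control samples from limma for the 9 tested genes, on log2(RPKM + 1), with bars of 1 standard error for the fit without a block (black circles) and for the blocked fit (yellow diamonds). The estimates lie between -0.87 for EGR1 and -0.11 for SPRY2, and the bar is narrower in the blocked fit for all 9 genes.

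Ordered by their mean in the controls, the levels per length ran from DUSP1 through PHLDA1 (35.2 RPKM), IER3 (32.1 ± 7.02 RPKM), SPRY4, DUSP6, DUSP5, ETV4, EGR1 and SPRY2 (6.47 ± 1.41 RPKM) to DUSP4. Only DUSP1 and DUSP4 were apart from their neighbour in this order in every control. All other neighbours overlapped in their 3 control values.

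Within the replicate numbers, the 9 tested genes gave 27 differences between a CD73 siRNA sample and the control of the same number. Of these, 25 were below 0. The 2 exceptions were IER3 in numbers 2 and 3. In 8 of the 9 genes all 3 numbers were lower, which held for 24.5% of all tested genes. The size of the difference depended on the number. The median of the 9 was -0.68 in number 1, -0.16 in number 2 and -0.38 in number 3, where the median of all tested genes was 0.02, -0.00 and 0.01. EGR1 differed by -1.57, -0.24 and -0.78, DUSP1 by -0.83, -0.08 and -0.34, and SPRY4 by -0.96, -0.22 and -0.46 in numbers 1, 2 and 3. Number 2 gave the smallest difference in 8 of the 9 genes and in 53.6% of all tested genes, and number 1 the largest in 7 of the 9 and in 58.9% of all. NT5E itself differed by -1.78, -0.92 and -0.98. The reduction of the target was close to equal in numbers 2 and 3, where the 9 genes differed by -0.16 and -0.38 at the median, and whether the numbers differ was not tested.

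**Figure D3:**
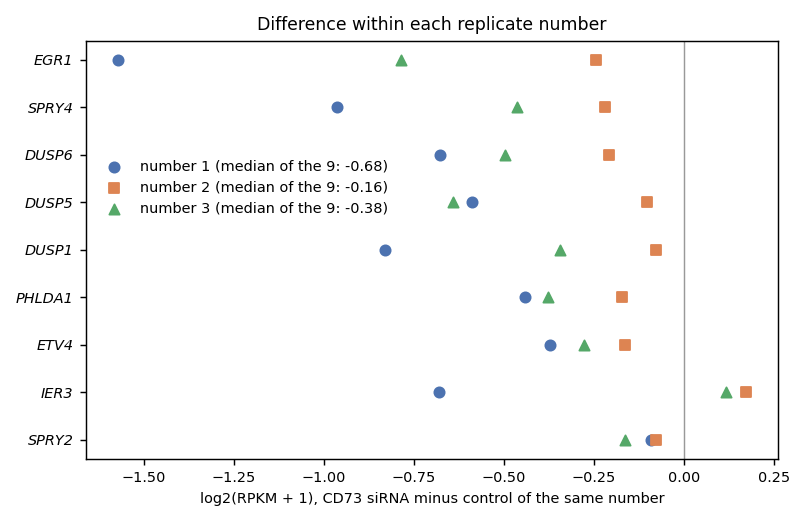
Difference in log2(RPKM + 1) between the CD73 siRNA sample and the control of the same number for the 9 tested genes. Of the 27 points 25 lie below 0, number 2 lies nearest to 0 in 8 of the 9 genes, and IER3 is the only gene with points above 0.

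The samples numbered 2 also stood apart in level. They were the highest of both groups for DUSP1, DUSP5 and EGR1 and the lowest of both groups for DUSP6 and SPRY4. Such a pattern was common, since 22.7% of all tested genes were highest and 16.8% lowest in number 2 of both groups. In the controls, number 2 exceeded the mean of numbers 1 and 3 by 0.82 for EGR1, 0.80 for DUSP5 and 0.34 for DUSP1 on the log2(RPKM + 1) scale, and it was lower by a difference of -0.95 for SPRY4 and -0.45 for DUSP6. In the siRNA samples the same quantity was 1.75 for EGR1, 1.31 for DUSP5 and 0.85 for DUSP1. For SPRY4 it was -0.46 and for DUSP6 only -0.07. FOS, an AP-1 subunit below the filter and named after its values were seen, was at 0.365, 2.65 and 0.349 RPKM in siRNA samples and at 0.655, 2.80 and 0.412 RPKM in controls. Over 31 tested genes of a list of further immediate-early genes, the median of this quantity was 0.55 in siRNA samples and 0.30 in controls, against 0.01 and 0.04 over all genes. With both samples numbered 2 left out, an alternative chosen after the values were seen, limma put 5 of the 9 genes lower past the same threshold of 0.01, against 1.68% of all genes. They were EGR1, SPRY4, DUSP5, DUSP6 and DUSP1, so DUSP1 took the place of PHLDA1 among those called with the block. Number 2 had given the smallest difference in 8 of the 9 genes and in 53.6% of all, so this count is not separate evidence of a difference.

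**Figure D4:**
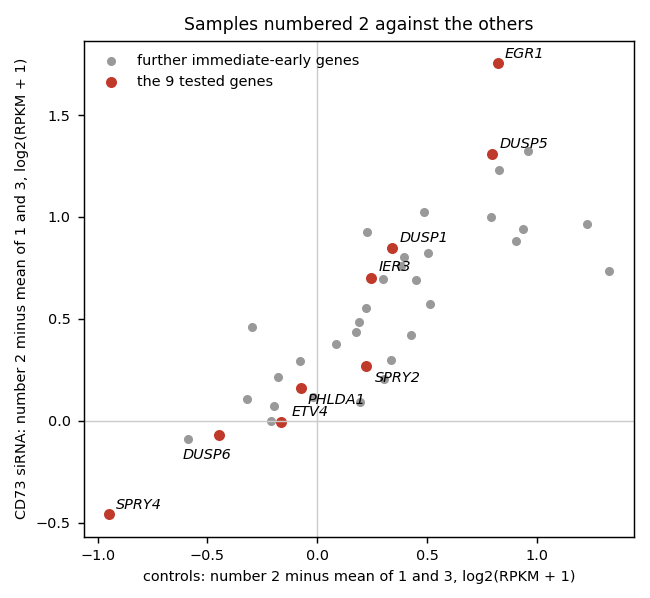
Sample 2 minus the mean of samples 1 and 3 on log2(RPKM + 1), for the controls (horizontal) and the CD73 siRNA samples (vertical), with the 9 tested genes in red and 31 further immediate-early genes in grey. EGR1 (0.82 and 1.75) and DUSP5 (0.80 and 1.31) lie at the upper right and SPRY4 (-0.95 and -0.46) at the lower left.

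Other genes of the pathway were read from lists that also hold some of the 10 genes. The lists were written from general knowledge, but with earlier results of these data known. Among 10 MAP kinase phosphatases of the DUSP family, 6 were tested, 3 of them the members DUSP1, DUSP5 and DUSP6. Of the 6, 5 had a lower mean, against 48.0% of all tested genes. Past an unadjusted p below 0.01, 1 was lower without the block and 3 with it, against 1.31% and 3.3% of all tested genes. The 3 were the members DUSP5 and DUSP6 and the non-member DUSP7. The one past it without the block was DUSP7, a cytoplasmic phosphatase of the DUSP6 type. DUSP7 was at 3.08, 4.43 and 4.58 RPKM in siRNA samples and at 6.77, 5.66 and 6.16 RPKM in controls, a log2 difference of -0.53 (standard error 0.147, limma adjusted p = 0.305). DUSP9, also tested and not a member, differed by -0.55 with overlapping groups (limma adjusted p = 0.392). DUSP16, the only tested gene of the list with a higher mean, differed by 0.11 (limma adjusted p = 0.862). DUSP2, DUSP8 and DUSP10 did not pass the filter and are named after their values were seen. DUSP2 was at 0.451, 0.460 and 0.584 RPKM in siRNA samples and at 2.10, 0.767 and 1.31 RPKM in controls. Its groups did not overlap, which held in this direction for 8.07% of all tested genes. In DUSP8 and DUSP10 the groups overlapped, with siRNA means at 112% and 64.7% of the control. The list median, members included, was -0.45.

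The family members of the other genes were less uniform. Of 7 Sprouty and SPRED genes, 6 were tested and 4 had a lower mean, against 48.0% of all tested genes. Their median was -0.12. None was past an unadjusted p below 0.01 without the block, and SPRY4 was with it. Lower past that limit were 1.31% of all tested genes without the block and 3.3% with it. The non-member with the smallest p was SPRY1, a Sprouty paralogue, which was at 15.8, 13.3 and 12.96 RPKM in siRNA samples and at 11.7, 12.2 and 11.1 RPKM in controls (log2 difference 0.24, limma adjusted p = 0.423). In the PEA3 group, ETV5 was at 43.9, 35.9 and 44.2 RPKM against 42.2, 35.5 and 41.0 RPKM (log2 difference 0.06, limma adjusted p = 0.871), and ETV1 stayed at or below 1.11 RPKM. EGR2, EGR3 and EGR4 did not pass the filter. Among 7 IER and PHLDA genes, all tested, 6 had a lower mean, against 48.0% of all tested genes. In limma's test without the block 0 were past p below 0.01. With the block 2 were lower past that limit, PHLDA1 and IER5L, against 3.3% of all tested genes. IER5L, the non-member with the smallest p, differed by -0.41 (standard error 0.153, limma adjusted p = 0.373; 0.107 and 0.123 with the block).

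A transcript score of MAPK pathway activity has 10 genes and shares PHLDA1, SPRY2, SPRY4, DUSP4, DUSP6 and ETV4 with the genes above. Of the 10 score genes, 9 were tested, 5 of them members, and 8 had a lower mean, against 48.0% of all tested genes. CCND1, the gene of cyclin D1, was the only one past an unadjusted p below 0.01 without the block. It was lower, as were 1.31% of all tested genes past that limit. With the block 5 were lower past it, among them the members DUSP6, SPRY4 and PHLDA1, against 3.3% of all tested genes. CCND1 was at 75.5, 76.9 and 72.1 RPKM in siRNA samples and at 180, 104 and 129 RPKM in controls, a log2 difference of -0.83 (standard error 0.183, limma adjusted p = 0.303). The median of the list was -0.33. A list of 26 genes of the cascade itself ran from adaptor proteins through RAS, RAF and MEK to ERK and its kinase targets. It also held NF1, RASA1 and RASA2, and its 25 tested genes had a median of -0.03. Of the 25, 13 had a lower mean, against 48.0% of all tested genes. In limma's test 0 were past p below 0.01 in either direction, with or without the block. Of the 12527 tested genes, 948 were past it with the block and 392 without. The smallest p was that of MRAS, a RAS-related GTPase, at 4.04, 3.58 and 4.01 RPKM in siRNA samples and 1.81, 3.12 and 2.49 RPKM in controls (log2 difference 0.51, limma adjusted p = 0.327). The differences ran from -0.358 for KSR1 to 0.725 for PTPN11, both named after their values were seen (limma adjusted p = 0.398 and 0.382).

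Of 37 further immediate-early genes, 31 were tested and 21 had a lower mean, against 48.0% of all tested genes. Their median was -0.22. Past an unadjusted p below 0.01 without the block were 2 genes, both lower, against 1.31% of all tested genes. TRIB1, a pseudokinase gene, was at 12.0, 14.0 and 13.9 RPKM in siRNA samples and at 20.3, 15.8 and 19.7 RPKM in controls (log2 difference -0.45, limma adjusted p = 0.305). JUNB, an AP-1 subunit, was at 7.83, 12.8 and 10.4 RPKM in siRNA samples and at 33.3, 17.9 and 14.8 RPKM in controls (log2 difference -0.96, limma adjusted p = 0.316). With the block JUNB was no longer past that threshold (adjusted p = 0.139), while 6 genes were lower and 1 higher past it, TRIB1 among the 6. Over all 12527 tested genes 3.3% were lower and 535 genes higher past it. The 6 heat shock genes HSPA1A, HSPA1B, DNAJB1, HSPH1, HSPA8 and HSP90AA1 were listed as a sign of stress during handling. All had a higher mean in siRNA samples, with a median of 0.18 and 0 past p below 0.01 in limma's test. By comparison, 48.0% of all tested genes had a lower mean. HSP90AA1 had the smallest p (log2 difference 0.51, adjusted p = 0.353), and the part of such stress in the results was not tested.

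**Figure D5:**
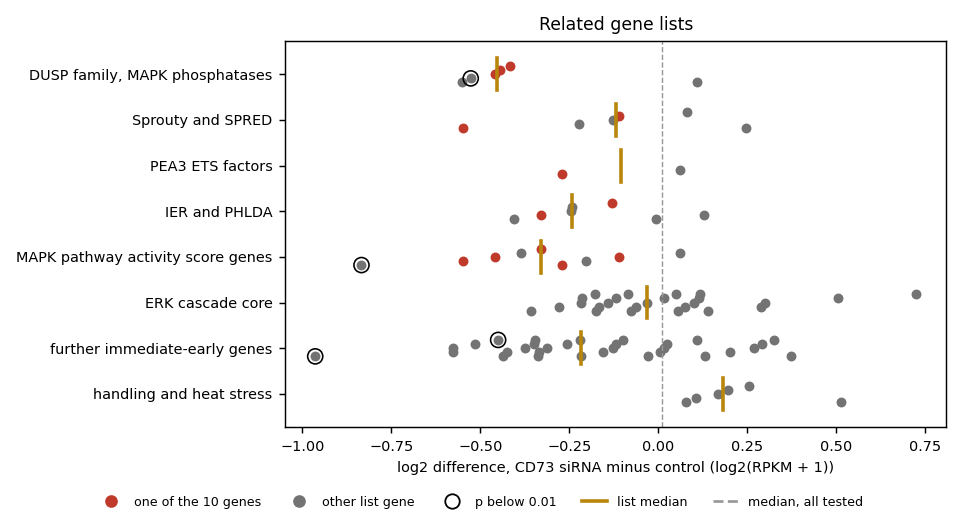
Log2 difference between CD73 siRNA and control samples on log2(RPKM + 1) for the tested genes of 8 lists, with the genes described above in red, other genes in grey, a ring around genes with an unadjusted limma p below 0.01, a yellow bar at the list median and a dashed line at the median of all tested genes. The lists drawn leave out the EGR factors, with EGR1 as the 1 tested gene. Of those drawn, the phosphatases (-0.45) and the pathway activity genes (-0.33) have the lowest medians. The ERK cascade genes have a median of -0.03 and run from -0.358 to 0.725.

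The gene whose course over the 6 samples was most like the average of the 9 was MYC, itself an ERK-dependent transcription factor gene. Likeness was measured as the root mean square distance of the log2(RPKM + 1) values, each gene centred on its own mean, over the 6 samples. MYC was at 33.8, 49.1 and 38.2 RPKM in siRNA samples and at 57.1, 58.5 and 46.7 RPKM in controls, at a distance of 0.05 from the average. The next were COPS7B (0.053), GPX7 (0.053), NR1D1 (0.054) and CD70 (0.057). The median distance over all tested non-members was 0.317, and these genes lie below it because they were picked as the nearest. Among the 9, PHLDA1 (0.164) and DUSP1 (0.165) lay nearest to their own average. EGR1 (0.553), SPRY4 (0.49) and DUSP5 (0.37) lay farthest, each beyond that median, so the average is not a course that all 9 shared. The 6 samples share their 2 groups and 3 numbers, so the distances describe these samples only.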

How the data were processed

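Total RNA of 6 PANC-1 samples was sequenced. The authors deposited a table of normalised values per sample, read here as RPKM from the values themselves, since no source used here names the unit. Multiplied by merged exon length (GENCODE release 29, GRCh38), 95.5% to 95.6% of values worth fewer than 1000 reads were whole multiples of 1 step per sample within 0.05 reads, and the step gave the library totals. The submitters' processing notes list bcl2fastq, Bowtie2 2.2.3, HTSeq 0.6.0 and hg38. Whether counting used strand is not given in the sources used here.

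Groups and replicate numbers came from the labels. The 12527 genes that reached 1 RPKM in 3 or more samples were compared on log2(RPKM + 1) with limma 3.58.1 in R 4.3.3 (lmFit, eBayes with trend) and Benjamini-Hochberg adjustment over all tested genes. Unless named otherwise, p and adjusted p are limma's. Differences of weakly expressed genes come out too small on this scale. The fit without a block was the main one, as the study names a t test with no pairing and none for its sequencing. No source used here states that same-numbered samples were paired. The replicate numbers were taken as pairs because same-numbered samples deviated together in these same data, in all 3 pairs. Exact permutation tests ran in scipy 1.17.1. The limma fit without a block was tested on simulated data.

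The members and lists were chosen with earlier results of these data known. By rule, named genes were the 10 members, NT5E, up to 4 non-members per list past an unadjusted p of 0.01 (or the one with the smallest p) and the 5 genes nearest to the average member. Other genes in the text fall outside this rule, such as DUSP2, DUSP8, DUSP9, DUSP10, DUSP16, ETV1, EGR2, EGR3, EGR4, FOS, KSR1 and PTPN11. RPKM compares levels per length, and reads of SPRY4 are approximate because its value was not a whole multiple. Alternatives were a pseudocount of 0.1, no filter or a limit of 5 RPKM, 2 rescalings, no moderation, the block and each sample left out. Symbols came from the supplied name table.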

Additional observations from a re-analysis of the deposited data

How the results depend on the processing

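All 9 tested genes stayed lower under a pseudocount of 0.1, no filter, both rescalings, the block and no moderation. With samples left out in turn, SPRY2 reversed to 0.083 without CD73 siRNA replicate 3 and IER3 to 0.038 without CD73 siRNA replicate 1, and the cause was not tested. The number of the 9 genes lower past an unadjusted p of 0.01 was 0 in the reported fit and 1 with no filter. It was 1 with median-of-ratios scaling, 5 with the replicate block and 0 to 3 with a sample left out. The latter were 3 without CD73 siRNA replicate 2 (DUSP1, DUSP5 and EGR1) and 2 without control replicate 2 (DUSP6 and SPRY4). Without both samples numbered 2, a setting chosen after the values were seen, it was 5. Number 2 gave the smallest difference in 8 of the 9 genes, so that count is not separate evidence of a difference. The share of all genes lower in the same fit was 0.634% with no filter, 1.5% with median-of-ratios scaling, 3.3% with the block, 1.68% without both samples numbered 2, 1.31% without CD73 siRNA replicate 2 and 2.01% without control replicate 2. PHLDA1 was past the threshold at -0.33 with no filter, -0.355 with median-of-ratios scaling and -0.33 with the replicate block. With the replicate block DUSP5 (-0.44), DUSP6 (-0.46), SPRY4 (-0.55) and EGR1 (-0.87) also passed it. Without both samples numbered 2 DUSP1 (-0.59), DUSP5 (-0.615), DUSP6 (-0.59), SPRY4 (-0.71) and EGR1 (-1.18) passed it. Over the samples left out in turn the log2 difference ran from -0.70 to -0.19 for DUSP1, -0.88 to -0.17 for DUSP5, -0.61 to -0.32 for DUSP6, -0.865 to -0.37 for SPRY4, -1.45 to -0.55 for EGR1, -0.28 to 0.08 for SPRY2 and -0.36 to 0.04 for IER3. NT5E stayed at -1.23 with no moderation but missed the threshold.

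Of all tested genes, 392 were past an unadjusted p of 0.01, 948 with the replicate block, 216 with no moderation and 116 to 792 with a sample left out (116 without CD73 siRNA replicate 1, 188 and 258 without control replicates 1 and 3, 792 without control replicate 2). At an adjusted p of 0.05 the count was 1, and 0 under a pseudocount of 0.1, no filter, the limit of 5 RPKM, the replicate block, without both samples numbered 2 and with any sample left out (0 to 0), and 2 under TPM scaling or no moderation. DUSP4 entered only the fit with no filter. Depth limits DUSP4.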
